A study of Mus musculus with 17 samples.

Results

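The replication-dependent histone genes were followed in 15 RNA-seq libraries of mouse limb buds. They were taken by name: of the 34682 genes of the deposited count table, 77 had names of the Hist1h, Hist2h, Hist3h and Hist4h series. After 9 names with a copy suffix were set aside, 68 were left, and the 57 of these with at least 10 counts summed over the 15 libraries are the members described here. The other 11 names stayed under that minimum, and 9 of them had no count in any library. By cluster, 48 members lie in Hist1 on chromosome 13, 6 in Hist2 on chromosome 3, 2 in Hist3 on chromosome 11 and 1 in Hist4 on chromosome 6. By class, 6 encode the linker histone H1, and 12, 17, 10 and 12 belong to the core classes H2A, H2B, H3 and H4. One of the H2B names, Hist3h2bb-ps, is a pseudogene.

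All libraries came from E12.5 limb buds (E, embryonic day) and were made from polyA-enriched RNA. The mutants carry structural variants at the Sox9/Kcnj locus of chromosome 11: Dup-C (2 libraries) and Dup-L (2) are duplications, ∆Bor is a boundary deletion (2 het libraries and 1 hom library), and Dup-L∆Bor (4) joins Dup-L to that deletion. WT (4) is their control. The labels give no zygosity for Dup-C, Dup-L or Dup-L∆Bor, and they do not say whether replicates were separate embryos or which limb was taken, so the p-values reflect sample-to-sample spread that could be technical. The series also lists 2 fingertip samples of E17.5, not used here.

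Each S phase doubles the need for histones, and the replication-dependent genes supply them, with many near-identical copies for each core histone. Their mRNAs are known for an unusual end: the transcript is cut a few bases after a conserved stem-loop, which the protein Slbp binds, and it carries no polyA tail. Some of these genes can also be read through to a polyA signal further downstream, which gives a tailed mRNA. A polyA-selected library therefore shows a small remainder of histone mRNA, and tailed molecules and carried-over tailless ones cannot be told apart in these counts.

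The stem-loops are shown because they mark the family and its untailed ends, and because they show how alike the members are. The pattern (GG, any 3 bases, TT, any base, T, any base, A, any 3 bases, CC), read on the transcript strand after the stop codon of the GENCODE M21 transcripts (GRCm38), was found in 38 of the 57 members. Many annotated transcripts stop too early to hold it. Among the 23 members with at least 100 annotated bases after the stop codon, 21 held it, against 0.216% of 19890 other coding genes. The windows below show 1 or more members of each class that the results turn on, 5′ to 3′, with the stem-loop in capitals.
Hist1h4d (H4): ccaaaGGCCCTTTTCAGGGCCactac
Hist1h4f (H4): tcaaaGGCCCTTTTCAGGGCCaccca
Hist1h4i (H4): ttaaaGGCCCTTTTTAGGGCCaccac
Hist1h3c (H3): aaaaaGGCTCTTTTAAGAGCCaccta
Hist1h2ag (H2A): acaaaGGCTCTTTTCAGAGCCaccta
Hist1h2bk (H2B): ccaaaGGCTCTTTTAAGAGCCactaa
Hist3h2ba (H2B): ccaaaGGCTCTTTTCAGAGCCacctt
Hist1h1c (H1): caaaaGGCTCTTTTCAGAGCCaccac
The stem read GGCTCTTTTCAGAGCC in 19 members of H1, H2A, H2B and H3. The stems with a GGCCC or GGTCC arm stood in H4 genes, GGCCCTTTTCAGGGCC in 6 of them and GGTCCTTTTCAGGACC in 2. Hist2h2be and Hist1h2bc had long annotated ends without these letters. In 20 of the 38 members the annotation ran on for more than 100 bases after the stem-loop, and a polyA signal (AATAAA or ATTAAA in the last 40 bases) stood at the end of 13 of the 57, against 48.7% of 58791 coding transcripts.

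Promoter sequences of 51 members were found in RefSeq (GRCm38.p6), each from 250 bases before to 50 after the start. The CCAAT box stood in 43 of them, against 37.4% of 32851 promoters, and the 8 without it were all H4 genes, of which 3 of 11 had one. The letters TATAAA stood in 32, against 13.6% of all promoters. The octamer ATTTGCAT stood in 11, namely in 6 of 14 H2B and 5 of 12 H2A promoters, against 1.74% of all. Motifs were searched as letters on both strands over the whole sequence, and their position was not tested. Several H2A and H2B promoters are nearly the same stretch read from opposite strands, such as those of Hist1h2ae and Hist1h2bg. The same letters are then counted for both genes, so these counts are not of independent promoters. An H4 promoter without the CCAAT box and an H2B promoter with it are shown, both of members described below, with the CCAAT and TATAAA letters, on either strand, in capitals.
Hist1h4i, chr13:22041313-22041612, minus strand: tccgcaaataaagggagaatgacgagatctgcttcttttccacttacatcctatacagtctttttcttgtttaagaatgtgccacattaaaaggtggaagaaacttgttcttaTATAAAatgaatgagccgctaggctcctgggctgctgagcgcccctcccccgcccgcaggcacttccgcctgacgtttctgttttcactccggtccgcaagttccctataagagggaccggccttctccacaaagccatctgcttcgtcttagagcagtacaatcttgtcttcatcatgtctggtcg
Hist3h2ba, chr11:58948661-58948960, plus strand: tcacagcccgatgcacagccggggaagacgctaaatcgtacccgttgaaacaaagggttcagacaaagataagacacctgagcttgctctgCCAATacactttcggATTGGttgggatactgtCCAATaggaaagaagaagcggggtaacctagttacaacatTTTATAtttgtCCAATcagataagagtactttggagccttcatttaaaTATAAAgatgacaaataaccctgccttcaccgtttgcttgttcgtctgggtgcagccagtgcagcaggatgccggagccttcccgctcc

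Between 34486256 and 53711742 counts were summed per library, and the members together took 0.00358% to 0.00954% of them, or 1380 to 4704 counts per library. Limb mesenchyme markers were present in every library, their 6 genes summing to 1622.6 to 2047.5 CPM (counts scaled to library size). Library numbers in the headers fall into 2 ranges, called batches here: the first has 9 libraries (Dup-C, Dup-L, ∆Bor, WT 1 and WT 2) and the second 6 (Dup-L∆Bor, WT 3 and WT 4). The Dup-L∆Bor columns are named R2 to R5. Reads of near-identical genes are a limit throughout: a median of 45.3% of the 50-base words of a member's transcript also occurred in another annotated gene, so levels of single paralogs are uncertain where the counting could split or drop shared reads. In the GRCm38 annotation 17 members also overlap another gene, mostly a Gm-named one on the opposite strand, and no source used here says whether the counting used strand.

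Per transcript length, a few genes stood out. In the authors' FPKM values (fragments scaled by transcript length and library size), Hist1h4i averaged 14.6 FPKM over the 15 libraries, Hist3h2ba 14.1, Hist1h3c 5.91, Hist1h2bk 4.55, Hist1h2ag 4.50, Hist2h2be 4.23 and Hist1h1c 4.03. The ranges of single libraries overlapped between neighbours in this order: Hist1h4i ran between 2.26 and 26.0 FPKM and Hist3h2ba between 3.25 and 22.5 FPKM. The median member averaged 1.07 FPKM, and 26 members averaged less than 1 FPKM. H2A, H3 and H4 genes form the inner part of the nucleosome with H2B, and all of these classes had a member among the first 5.

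Summed over all members, the histone level was lowest in both Dup-L libraries and in 1 ∆Bor het library. Dup-C had sums of 85.0 and 76.7 CPM, Dup-L of 49.4 and 41.3 CPM. There were 74.7, 75.2, 82.0 and 68.7 CPM in Dup-L∆Bor, 36.5 and 74.0 CPM in ∆Bor het, 79.9 CPM in ∆Bor hom, and 73.1, 84.4, 85.9 and 91.4 CPM in WT. The Dup-L sums did not overlap those of WT. The ∆Bor het libraries stood on both sides of the Dup-L range, ∆Bor het 1 below and ∆Bor het 2 above it.

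**Figure D1:**
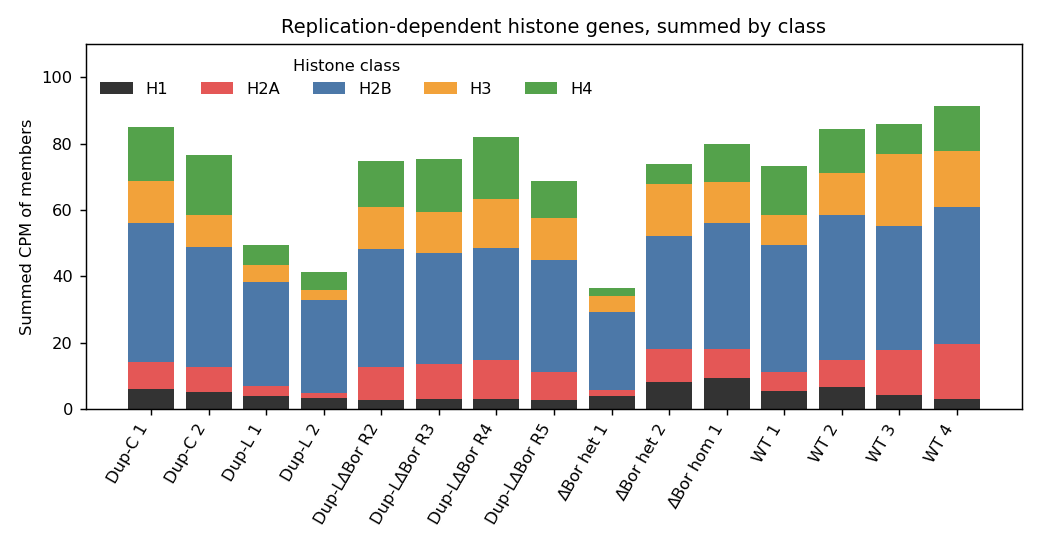
Summed CPM of the members in each of the 15 libraries, stacked by histone class. Dup-L 1, Dup-L 2 and ∆Bor het 1 have the lowest sums (49.4, 41.3 and 36.5 CPM), and H2B is the largest class in every library.

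By class, the same libraries stood lowest among the core histones. H2A genes summed to 2.94 and 1.68 CPM in Dup-L, against 6.03, 8.20, 13.7 and 16.6 CPM in WT. H3 genes summed to 5.15 and 3.06 CPM in Dup-L, against 9.04, 12.7, 21.9 and 17.0 CPM in WT. In both classes WT 3 and WT 4, of the second batch, stood above WT 1 and WT 2.

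H4 genes summed to 6.02 and 5.53 CPM in Dup-L, against 14.6, 13.3, 8.99 and 13.6 CPM in WT. H2B genes summed to 31.3 and 27.9 CPM in Dup-L, against 38.2, 43.5, 37.2 and 41.3 CPM in WT. In these 2 classes, as in H2A and H3, both Dup-L libraries lay below every WT library. The linker H1 genes summed to 3.92 and 3.20 CPM in Dup-L, against 5.27, 6.67, 4.11 and 2.94 CPM in WT, and here the groups overlapped.

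Of the 57 members, 53 passed the count filter and were tested. Hist2h2ab, Hist1h1t, Hist1h4b and Hist1h2ba had too few counts, and the testis-type genes Hist1h1t and Hist1h2ba were at 0 to 0.165 CPM in every library. The filter left out only members low in all groups. A member with few counts in a mutant passed through the other groups, where it was higher, as did Hist1h2ak and Hist1h4j with 2 counts each in Dup-L. Counts of tested members that fell can therefore be raised by the filter, which was the same for all genes. The size of that effect was not tested. A gene is said to have risen or fallen only where its adjusted p was under 0.05 in edgeR's quasi-likelihood test (Benjamini-Hochberg over 17655 genes). All 5 comparisons share the same WT libraries, and their values are given side by side only.

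In Dup-L, 32 of the 53 tested members fell and 0 rose, where 32.4% of all tested genes were called, 16.6% lower and 15.8% higher. The median log2 fold change of the members was -1.55, against 0.00 over all genes. Both Dup-L libraries lay below every WT library for 42 members, where 24.6% of all tested genes did so. Of the H3 genes 9 of 10 tested fell (median -1.94), of the H2A genes 8 of 11 (median -2.39), of the H4 genes 6 of 11 (median -1.91) and of the H2B genes 9 of 16 (median -1.06). None of the 5 tested H1 genes fell (median -0.82; 1 of 5 at an unadjusted p under 0.05, as had 43.2% of all genes). These class counts depended on the fit: with GC and length offsets 0 H2A, 2 H3, 2 H2B and 4 H4 genes fell, and within the first batch 0 H2A, 0 H3, 2 H2B and 6 H4 genes. By cluster, 29 of 45 fell in Hist1, 2 of 5 in Hist2 and 1 of 2 in Hist3, and Hist4h4 was not called.

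**Figure D2:**
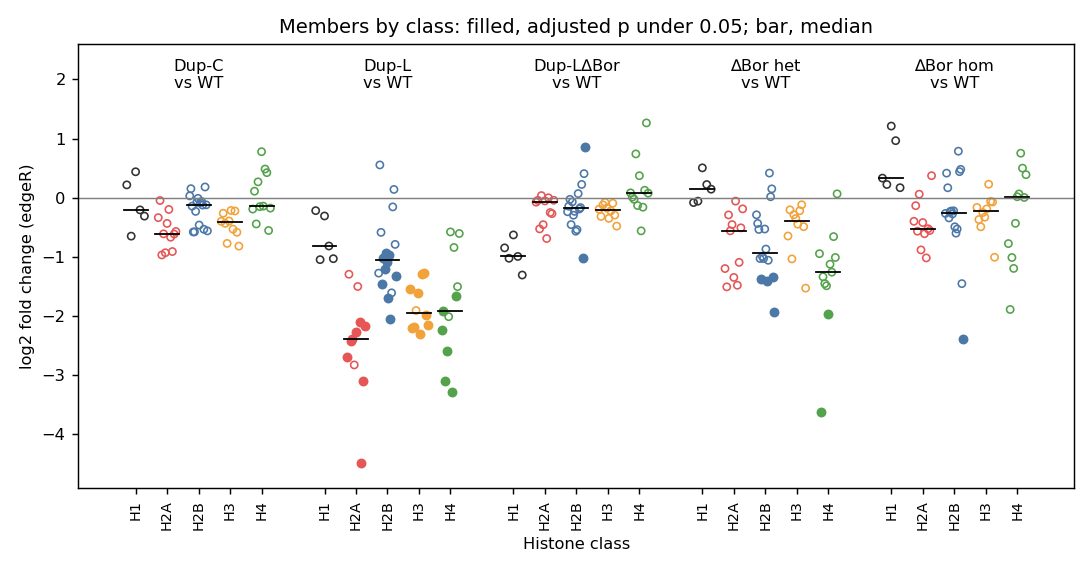
Log2 fold change (edgeR) of each of the 53 tested members by histone class, in each mutant group against WT. Filled points have an adjusted p under 0.05 and bars are class medians: the filled points gather in Dup-L, where 32 members fell.

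Hist1h4d, an H4 gene, had the lowest adjusted p. It had 0.245 and 0.271 CPM in Dup-L, against 1.60, 1.94, 2.84 and 2.53 CPM in WT. Both Dup-L libraries lay far below the lowest WT value, and edgeR gave -3.09 on the log2 scale (SE 0.474, adjusted p 0.001425). Hist1h4f, another H4 gene, had 0.0818 and 0.0813 CPM in Dup-L, against 0.483, 0.448, 0.552 and 0.555 CPM in WT. The WT libraries lay close together here, and the log2 fold change was -2.60 (SE 0.474, adjusted p 0.001924).

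The H2B gene Hist1h2bn had 0.218 and 0.163 CPM in Dup-L, against 0.618, 0.682, 1.03 and 0.861 CPM in WT. It fell by 2.05 (log2; SE 0.374, adjusted p 0.001924). Hist1h3c, the H3 gene with the highest FPKM, had 1.09 and 0.786 CPM in Dup-L, against 2.61, 3.35, 6.23 and 5.03 CPM in WT. Its groups did not overlap, with the second-batch WT libraries the highest, and it fell by 2.19 (SE 0.462, adjusted p 0.003583).

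Hist1h3f and Hist1h3i (H3), Hist1h4c (H4), Hist1h2bl (H2B) and the pseudogene Hist3h2bb-ps followed, with log2 fold changes between -2.30 and -1.32. Hist1h4j (H4) had only 2 counts in both Dup-L libraries together and 57 in WT, a ratio of 0.0935 with a 95% counting interval of 0.0111 to 0.353. The H2A genes were low in like manner: Hist1h2ag, the H2A gene with the highest FPKM, had 0.845 and 0.488 CPM in Dup-L, against 1.78, 2.80, 2.87 and 5.47 CPM in WT. Its log2 fold change was -2.26 (adjusted p 0.01025). Hist1h2ak had 2 counts in Dup-L and 129 in WT, a ratio of 0.0413 (0.00495 to 0.152).

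**Figure D3:**
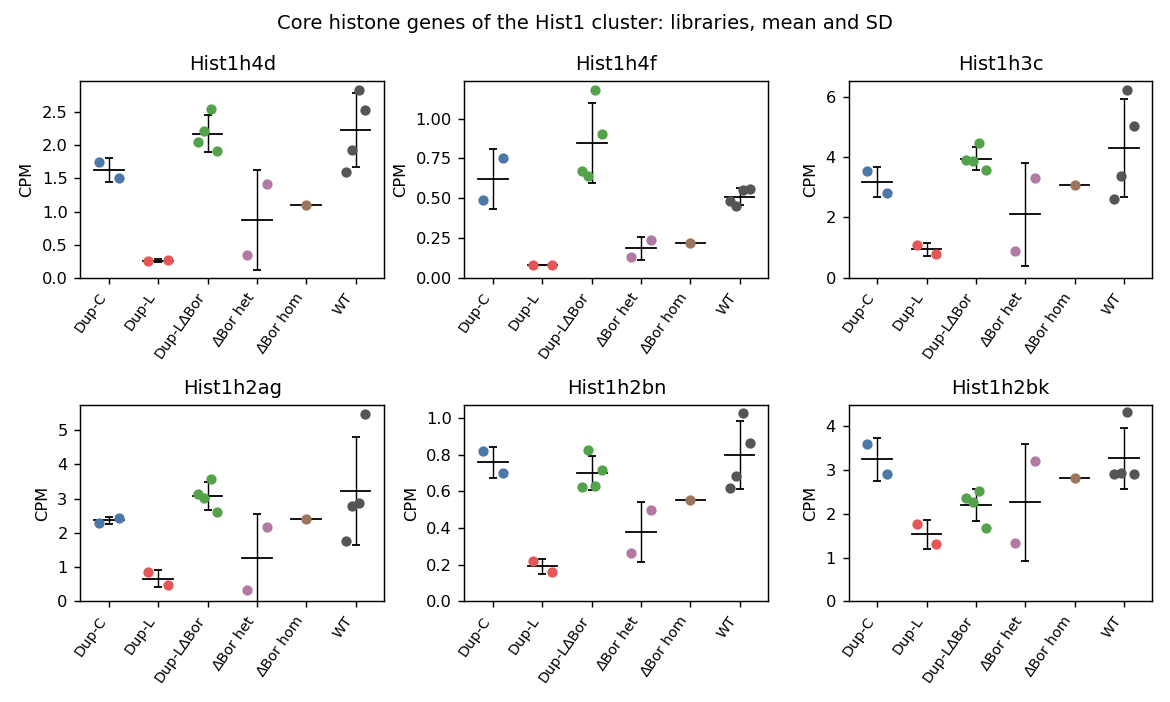
CPM of 6 core histone genes of the Hist1 cluster in each library, with the mean and, where a group has more than 1 library, the SD (bars). In both Dup-L libraries and in ∆Bor het 1 all 6 lie below every WT library. ∆Bor het 1 has 0.899 CPM for Hist1h3c, 0.344 CPM for Hist1h2ag and 0.344 CPM for Hist1h4d. It has 0.132 CPM for Hist1h4f, 0.265 CPM for Hist1h2bn and 1.32 CPM for Hist1h2bk.

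Several of the better expressed members were not called in Dup-L. Hist2h2be, an H2B gene with a long annotated end and no stem-loop letters, had 14.96 and 14.76 CPM in Dup-L, against 15.97, 17.3, 9.82 and 10.7 CPM in WT (log2 fold change 0.14, SE 0.191, adjusted p 0.61). Dup-L lay inside the WT range, between the batches. Hist2h2be held 30.3% and 35.7% of all member counts in Dup-L, against 21.8%, 20.5%, 11.4% and 11.8% in WT. Hist1h2bc, also H2B and also without the letters, had 1.91 and 2.28 CPM in Dup-L, against 1.12, 1.52, 1.29 and 1.78 CPM in WT. It was the one tested member with both Dup-L libraries above every WT library, where 26.4% of all tested genes had that order, though its log2 fold change of 0.56 was not called (SE 0.229, adjusted p 0.075). Hist1h1c, the H1 member with the highest FPKM, had 2.81 and 2.22 CPM in Dup-L, against 3.24, 4.93, 2.44 and 1.75 CPM in WT (adjusted p 0.54). Hist1h4i had 4.41 and 4.33 CPM in Dup-L, against 9.58, 7.52, 2.11 and 6.91 CPM in WT (adjusted p 0.35), and WT 3 alone lay below Dup-L.

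**Figure D4:**
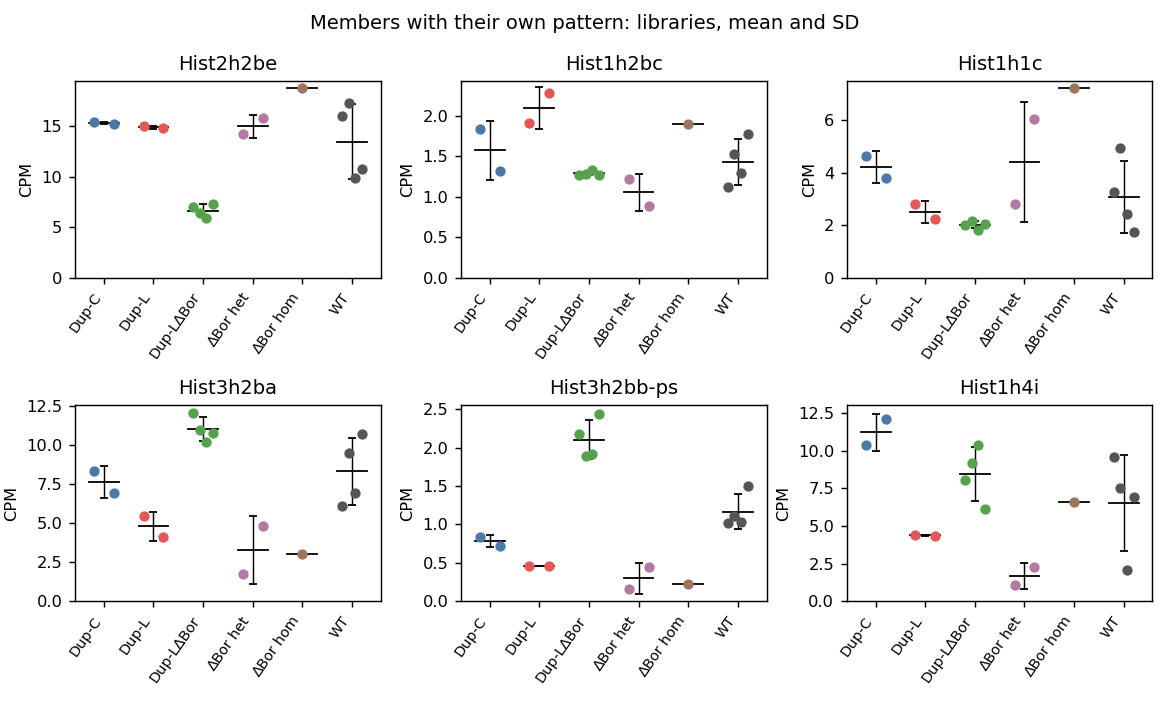
CPM of 6 members whose pattern departs from that of most core genes, with the mean and SD (bars). Hist2h2be is lowest in Dup-L∆Bor (5.89 to 7.29 CPM), and both Hist3 members are low in ∆Bor het and ∆Bor hom.

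The members with a polyA signal at the annotated end can be set beside the rest. In Dup-L 3 of the 12 tested members with one fell (median -1.15), and 29 of the 41 without one (median -1.60). Of all tested genes 16.6% fell, and the difference between these counts was not tested. RNAs that carry no polyA tail, such as Rmrp, Rpph1 and Terc, gave another view of carry-over: 12 of 17 listed were in the table and summed to 1.199 and 0.948 CPM in Dup-L, against 1.41, 1.70, 1.18 and 1.28 CPM in WT. By edgeR 0 of 7 tested were called (median -0.60), and 1 of 7 had an unadjusted p under 0.05, against 43.2% of all genes. Each of the 12 stayed at or under 0.7471 CPM in every library, so these tests rest on few reads. In Dup-L∆Bor the same RNAs had a median of 0.92, with 0 of 7 called. There 2 of 7 had an unadjusted p under 0.05 by edgeR, against 23.7% of all genes.

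Fewer members were called in Dup-L under several other settings of the fit. Members are GC-rich and short, with a median GC content of 57.2% and a median transcript length of 534 bases, against 49.9% and 3279 bases for tested genes, and GC was 64.7% in H2A, 60.1% in H3, 56.5% in H2B, 54.5% in H4 and 53.1% in H1. With offsets for GC and length in each library, 8 members fell and the median was -0.99. Within the first batch 8 fell (median -1.23), and with a batch term 14. Offsets and batch term together left 3, all H4: Hist1h4c, Hist1h4d and Hist1h4j. Leaving out Dup-L 2 left 3 (Hist1h2bn, Hist1h4d and Hist1h4f), and leaving out Dup-L 1 left 17. The number of all genes called in either direction was lower as well: 5719 in the fit of all libraries, 1239 with offsets, 3036 within the batch, 4187 with the batch term, 256 with offsets and batch term, 1122 without Dup-L 2 and 2740 without Dup-L 1. Hist1h4d passed the threshold under each of the 18 settings. The offsets were fitted on better expressed genes only, and most members lie below the level used for that. The part of GC content in the result was not tested beyond these offsets.

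**Figure D5:**
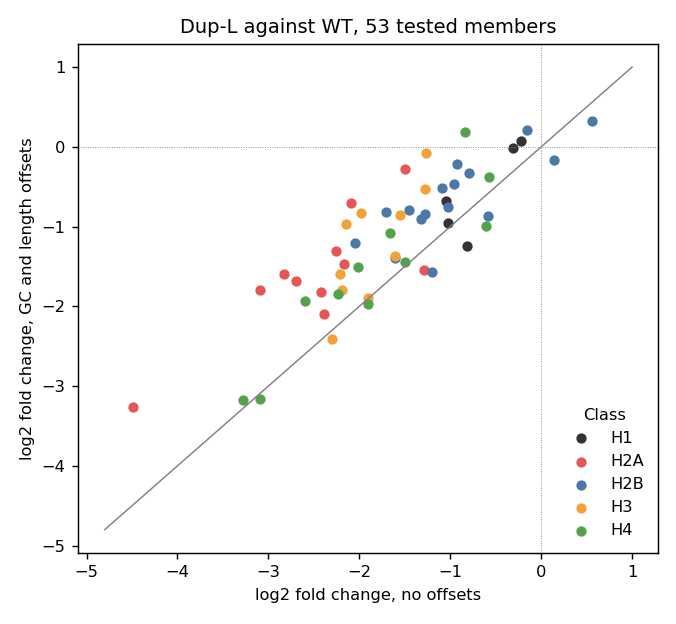
Log2 fold change in Dup-L against WT of the 53 tested members, without offsets (x axis) and with GC and length offsets (y axis), coloured by class. Most points lie above the line of equality: the H2A median is -2.39 without and -1.59 with offsets, while Hist1h4d stays near -3.1 on both axes.

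Limb type also differed between libraries. Pitx1, a hindlimb transcription factor, was at 0.518 and 0.677 CPM in Dup-L, against 59.8, 1.83, 70.1 and 1.83 CPM in WT, and lay between 39.9 and 116 CPM in the other mutants. The WT libraries with low Pitx1, WT 2 of the first batch and WT 4 of the second, had member sums of 84.4 and 91.4 CPM, above both Dup-L libraries. The part of limb type in the histone result was not tested. Of the tested markers of limb mesenchyme, 1 of 6 rose and 2 of 6 fell in Dup-L, where 15.8% of all genes rose and 16.6% fell. Among them Msx1, a transcription factor of the distal limb bud, had 13.3 and 10.8 CPM in Dup-L, against 40.6, 40.5, 40.95 and 38.2 CPM in WT. It had 14.5 CPM in ∆Bor het 1. Prrx1 lay the other way, with 828 and 916 CPM in Dup-L, against 732, 669, 548 and 549 CPM in WT. The 6 markers summed to 1986.6 and 2047.5 CPM in Dup-L, against 1737.5, 1834.2, 1690.4 and 1754.5 CPM in WT. Of the tested markers of other cell types, 2 of 4 surface ectoderm, 1 of 6 erythroid, 1 of 3 macrophage and 1 of 4 cartilage markers fell, 0 of 5 muscle markers were called, and 1 of 4 endothelial markers rose and 1 fell. The erythroid markers summed to 2354.4 and 1655.6 CPM in Dup-L, against 3593.2, 1735.5, 4921.1 and 3066.4 CPM in WT, and the groups overlapped. The part of these cells in the histone result was not tested. In bulk tissue fewer cells of a type and less RNA per cell cannot be told apart.

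Genes around histone supply moved in both directions in Dup-L, where 15.8% of all genes rose and 16.6% fell, so nothing particular to these lists is read from their counts. Of 16 tested genes for histone transcription and 3′ end processing, 5 rose and 2 fell: Npat, the activator of histone transcription at S phase entry, rose by 0.47 on the log2 scale (adjusted p 0.004564) and Slbp by 0.41 (adjusted p 0.02014), while Sympk, a scaffold of the cleavage complex, fell by 0.83 (adjusted p 0.001467) and Upf1, a helicase needed for histone mRNA decay, by 0.89 (adjusted p 0.001617). Of 25 tested S phase genes, 1 rose and 7 fell, with the licensing factors Cdt1 (-0.90) and Mcm2 (-0.80) and the chromatin assembly subunit Chaf1a (-0.51) at the lowest adjusted p. Of 14 mitosis genes, 4 rose and 2 fell: the kinase Plk1 fell by 0.82 and the spindle motor Kif11 rose by 0.62.

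The genes listed as replication-independent histones were mixed in Dup-L, with 2 higher and 4 lower of 9 tested. The linker variant gene H1fx had 10.2 and 7.75 CPM in Dup-L, against 35.6, 39.2, 39.0 and 28.8 CPM in WT, so it fell by 1.99 (log2, SE 0.283, adjusted p 0.00138). H2afx, whose product marks DNA breaks when phosphorylated, fell by 0.93, and H2afj by 1.11 (adjusted p 0.001688 and 0.003964). H3f3a lay the other way, with 572 and 574 CPM in Dup-L, against 398, 355, 232 and 243 CPM in WT. The list as a whole summed to 1745.0 and 1704.0 CPM in Dup-L, against 1694.5, 1675.6, 1469.1 and 1387.1 CPM in WT. H2afz was listed at 0 and H3f3b at no more than 2.167 CPM in every library; both have near-identical copies elsewhere in the genome, so their levels are uncertain.

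In Dup-L∆Bor only 2 of the 53 tested members were called, 1 in each direction, where 3.85% of all tested genes were called (2.25% higher and 1.60% lower). The median of the members was -0.17. The number of all genes called was 679 with all libraries and 81 (without R3) to 1516 (without WT 4) with 1 left out. Hist2h2be had 6.97, 6.38, 5.89 and 7.29 CPM in Dup-L∆Bor, against 15.97, 17.3, 9.82 and 10.7 CPM in WT. All Dup-L∆Bor libraries lay below all WT libraries, and those of the same batch, WT 3 and WT 4, were the nearest. The log2 fold change was -1.02 (SE 0.16, adjusted p 0.006). It was called under 18 of the 19 settings, the exception being the fit within the second batch, with -0.63 (adjusted p 0.095).

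The pseudogene Hist3h2bb-ps had 2.171, 1.89, 1.91 and 2.44 CPM in Dup-L∆Bor, against 1.02, 1.11, 1.03 and 1.4996 CPM in WT. The groups did not overlap and it rose by 0.86 (log2; SE 0.222, adjusted p 0.047), a call made under 6 of 19 settings and lost when any Dup-L∆Bor or WT library but WT 4 was left out. Its neighbour Hist3h2ba, an H2B gene and the most abundant member outside Hist1 per length, had 12.0, 11.0, 10.2 and 10.8 CPM in Dup-L∆Bor, against 6.08, 9.49, 6.95 and 10.7 CPM in WT, where the groups overlapped and it was not called (log2 fold change 0.41).

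The H1 genes of Dup-L∆Bor all had a log2 fold change below 0, with a median of -0.99. Over all tested genes 51.5% had one below 0. None of the 5 H1 genes was called by edgeR, though 5 of 5 had an unadjusted p under 0.05, as had 23.7% of all tested genes. Their sum was 2.73 to 2.91 CPM in Dup-L∆Bor, against 5.27, 6.67, 4.11 and 2.94 CPM in WT, and the lowest WT library, WT 4, was of the same batch. H2A genes summed to 9.94, 10.5, 12.0 and 8.46 CPM in Dup-L∆Bor, all inside the WT range of 6.03 to 16.6 CPM. H4 genes summed to 13.7, 15.7, 18.8 and 11.2 CPM in Dup-L∆Bor, of which the 2 highest exceeded the WT range of 8.99 to 14.6 CPM.

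In ∆Bor het 6 of the 53 tested members fell and 0 rose, where 4.03% of all tested genes were called (1.78% lower and 2.25% higher). The members' median was -0.65. The 6 were Hist1h4c, Hist1h4i, Hist1h2bg, Hist1h2bm, Hist3h2ba and Hist3h2bb-ps. Hist1h4c had 3 counts in both ∆Bor het libraries together and 101 in WT, a ratio of 0.0765 with a counting interval of 0.0155 to 0.230. Hist1h4i had 1.06 and 2.27 CPM in ∆Bor het, against 9.58, 7.52, 2.11 and 6.91 CPM in WT, so that ∆Bor het 2 lay just above WT 3 (log2 fold change -1.97, adjusted p 0.046). Hist1h2bg and Hist1h2bm, both H2B, fell by 1.37 and 1.41 (adjusted p 0.043 and 0.044).

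The number of calls depended on single libraries. Without ∆Bor het 1, 0 members were called and the median was -0.21. Without ∆Bor het 2, 17 were called and the median was -1.58, the lone library then being assumed to vary like the other groups. Without WT 1, WT 3 or WT 4 the counts were 10, 3 and 2. The number of all genes called moved the same way: it was 712 with all libraries, 19 without ∆Bor het 1, 1929 without ∆Bor het 2, 2490 without WT 1, 205 without WT 3 and 56 without WT 4. H2A genes show how far these libraries lay apart, with sums of 1.67 and 10.03 CPM in ∆Bor het, against 6.03, 8.20, 13.7 and 16.6 CPM in WT, and H3 genes with 4.95 and 15.8 CPM in ∆Bor het. H4 genes were low in both ∆Bor het libraries, at 2.46 and 6.03 CPM, below every WT library (8.99 to 14.6 CPM).

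The Hist3 members were low in the ∆Bor het and ∆Bor hom libraries. They were not low in Dup-L∆Bor: there Hist3h2ba had 10.2 to 12.0 CPM and Hist3h2bb-ps rose, as given above. Dup-L∆Bor carries the deletion too, but its libraries are all of the second batch. The ∆Bor het and ∆Bor hom libraries are all of the first, so these groups can be set beside each other only through WT, which is in both batches. Hist3h2bb-ps had 1.02 and 1.11 CPM in WT 1 and WT 2 of the first batch, and 1.03 and 1.4996 CPM in WT 3 and WT 4 of the second. For Hist3h2ba the values were 6.08 and 9.49 CPM in the first and 6.95 and 10.7 CPM in the second. The part of batch in the difference between these groups was not tested. Hist3h2ba had 1.75 and 4.83 CPM in ∆Bor het and 3.03 CPM in ∆Bor hom, against 6.08, 9.49, 6.95 and 10.7 CPM in WT. No ∆Bor het or ∆Bor hom library reached the lowest WT value. The log2 fold change was -1.33 in ∆Bor het (SE 0.322, adjusted p 0.043) and -1.45 in ∆Bor hom (SE 0.436, adjusted p 0.070), of which the first was called. Hist3h2bb-ps had 0.159 and 0.444 CPM in ∆Bor het and 0.220 CPM in ∆Bor hom, against 1.02, 1.11, 1.03 and 1.4996 CPM in WT. It fell in both, by 1.93 in ∆Bor het (adjusted p 0.020) and by 2.38 in ∆Bor hom (adjusted p 0.049). Hist3h2bb-ps fell in Dup-L too, and Hist3h2ba had 5.45 and 4.14 CPM in Dup-L, below every WT library but not called (log2 fold change -0.79, adjusted p 0.065). Without ∆Bor het 1 the log2 fold change in ∆Bor het was -0.78 for Hist3h2ba and -1.38 for Hist3h2bb-ps, and neither was called.

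∆Bor hom has a single library, so its test borrows the spread of the other groups. Hist3h2bb-ps was the one call among 53, where 1.27% of all tested genes were called (0.901% rose and 0.374% fell), and the members' median was -0.24. The call was lost without WT 2 and without WT 4, and 2 members were called without WT 1. Of all genes 225 were called with all libraries, 2750 when WT 1 was left out, 76 for WT 2, 114 for WT 3 and 21 for WT 4. Hist1h1c had its highest level here, with 7.21 CPM in ∆Bor hom against 3.24, 4.93, 2.44 and 1.75 CPM in WT, though the difference of 1.21 (log2) was not called (SE 0.404, adjusted p 0.085). H1 genes together had 9.44 CPM in ∆Bor hom and core genes 70.5 CPM, against 2.94 to 6.67 CPM for H1 and 67.9 to 88.4 CPM for core genes in WT.

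Dup-C gave no histone call. By edgeR 0 of 53 members passed the threshold and 0 had an unadjusted p under 0.05, and DESeq2 and limma also called 0. In all, 1 of 17655 genes was called (0.00566%), namely Kcnj2 at the duplicated locus. That count depended on WT 1: without it 1640 genes were called, though still 0 members, and DESeq2 called 23 genes with all libraries. The members' median log2 fold change was -0.23, and 0.04 within the first batch. Hist1h4i had 10.3 and 12.1 CPM in Dup-C, against 9.58, 7.52, 2.11 and 6.91 CPM in WT, above every WT library but not called (log2 fold change 0.78, SE 0.413, adjusted p 0.35). H2A was the class with the lowest median, -0.61 over 11 tested genes, and 0.10 within the batch.

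The remaining members outside Hist1 were thinly covered. Hist2h2ac (H2A) and Hist2h3b (H3) fell in Dup-L, by 2.167 and 2.145 (adjusted p 0.04996 and 0.03152). Hist2h3b had 0.164 and 0.108 CPM in Dup-L, against 0.270, 0.431, 0.914 and 0.861 CPM in WT. Hist2h2bb, Hist2h4 and Hist4h4 stayed at or under 0.2935 CPM in every library and were called in no comparison. Hist2 as a whole summed to 15.4 and 15.1 CPM in Dup-L and to 7.23 to 8.59 CPM in Dup-L∆Bor, against 16.8, 18.2, 11.4 and 12.3 CPM in WT, most of it from Hist2h2be in every library.

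Outside the family, the genes whose log2 CPM followed the summed histone level most closely over the 15 libraries were Uri1 (Pearson r 0.95), Mesdc1 (0.93), Scand1 (0.93), Ccdc124 (0.93) and Tpgs1 (0.93). These are descriptions over libraries that share groups and batches. Uri1 had 0.0818 and 0.108 CPM in Dup-L and 0.0265 and 0.549 CPM in ∆Bor het, against 0.734, 0.915, 0.647 and 0.722 CPM in WT, with the same 3 libraries lowest. It stayed at or under 0.915 CPM in every library, so its values rest on few reads. All of these genes were picked as the highest correlations among the tested genes outside the members. The GC content was 68.4% for Scand1, 65.3% for Tpgs1, 59.96% for Ccdc124 and 45.7% for Uri1.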

How the data were processed

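The deposited table of raw counts per gene was used for all tests. Reads were aligned with STAR to mm9, per the submitters' processing notes, which also name DESeq2 and bedtools 2.17.0. For the counting tool, its annotation and strand use, nothing is given in the sources used here. The authors also deposited FPKM values per gene, used for levels between genes and in an alternative. RNA was polyA-enriched and libraries made with a TruSeq kit, per the labels' protocols.

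The main test was the two-sided quasi-likelihood F-test of edgeR 4.0.16 under R 4.3.3, with robust dispersion, TMM scaling and edgeR's count filter. One fit of 6 groups, without a block, held the 15 libraries. Benjamini-Hochberg adjustment ran over the 17655 genes tested, and 0.05 was the threshold. Log2 fold changes are mutant over WT, with the SE from the F-statistic, and CPM uses the TMM-scaled library sizes. The procedure was tested on simulated data. Alternatives used DESeq2 1.42.0, limma 3.58.1 on log2(FPKM + 0.1) or log2(FPKM + 1), other scaling, no filter, a batch term, fits within a batch, GC and length offsets, a replicate block, only the compared groups, and each replicate left out. GC content and length came by symbol from GENCODE M21 for 86.4% of tested genes and all 57 members. Intervals of count ratios are exact at 95% and cover counting error only. Depth was 34486256 to 53711742 counts.

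The members and gene lists were chosen with earlier results of these data known. Genes were named by rule: up to 10 called members per comparison by adjusted p, the 3 of each class with the highest FPKM, the tested members outside Hist1, up to 3 called genes of other lists, and the 5 genes most like the summed level. Hist1h2bc, Hist1h2ak, Slbp and the untested members were named after their values were seen. The Dup-L∆Bor columns could not be matched to single labels and count as unnumbered replicates. R4 and R5 share a library number in their headers, yet their counts differed by a mean chi-square of 27.3 per gene, where other pairs of the group had 6.28 to 35.5.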

Additional observations from a re-analysis of the deposited data

Results flagged for a closer look

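A single library stood apart from the others of its group in 5 of 84 groups of 4 values tested. Chance alone flags about 5% of groups. H2B genes summed to 35.6 CPM in Dup-L∆Bor R2, where the other 3 libraries had 33.6 to 33.7 CPM. H3 genes summed to 14.6 CPM in Dup-L∆Bor R4, where the others had 12.4 to 12.7 CPM. Hist1h4c had 0.343 CPM in WT 3, where the other WT libraries had 0.560 to 0.592 CPM. Hist1h2bk had 4.32 CPM in WT 3, against 2.92 CPM in each of the other WT libraries. Hist2h2ac had 0.133 CPM in Dup-L∆Bor R3, where the others had 0.265 to 0.292 CPM.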

How the results depend on the processing

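For the members named by rule, 453 alternative values were computed: 340 kept direction and call, 97 lost the call, 10 gained it and 6 changed sign. The number of members called in Dup-L was 32; it was 14 with a batch term, 8 within the batch, 8 with GC and length offsets, 3 with offsets and batch term, 5 with the replicate block, and 3 to 34 with 1 library left out. In Dup-L∆Bor 2 were called, against 1 with no count filter, a batch term, offsets with batch term or only the compared groups, 0 within the batch, and 1 to 4 with 1 library left out. In ∆Bor het 6 were called, against 1 with a batch term, 2 within the batch, 2 with offsets, 1 with offsets and batch term, 2 with the replicate block, 0 with only the compared groups, and 0 to 17 with 1 library left out. In ∆Bor hom 1 was called, against 3 with DESeq2, 0 with a batch term, within the batch, with offsets, with offsets and batch term or with only the compared groups, and 0 to 2 with 1 library left out. Dup-C gave 0 under every setting. The causes were not tested, except that fits with fewer libraries have less to estimate the spread from. The log2 fold change of Hist2h2be in Dup-L, not called under any setting, was -0.16 with a batch term, -0.19 within the batch, -0.16 with offsets, -0.46 with offsets and batch term and -0.18 with the replicate block. That of Hist1h1c in Dup-L ran between -0.49 (without WT 4) and 0.023 (without WT 2) with 1 library left out. Replicate numbers pair only 2 libraries per group, and deviations of same-numbered libraries correlated between -0.16 and 0.094, so the numbers are not read as pairing; no block could be fitted for Dup-L∆Bor and ∆Bor hom. Between 1380 and 4704 member counts per library limit the precision, and members under 1 FPKM rest on few reads.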
